A study of Mus musculus with 4 samples.

Results

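The monocyte subset genes Ly6c1, Ly6c2, Plac8, Vcan, Ace, Treml4 and Spn were chosen by name, as genes that mark either of the monocyte classes of the mouse, and all 7 of the 7 had a row among the 35869 genes of each RNA-seq sample. All samples came from wild-type C57BL/6 male mice. The control group was fed a normal fat diet (ND) and the other group a high-fat diet (HFD), from 8 weeks of age and for 12 weeks, with 2 samples in each group. RNA was taken from CD45+ cells, enriched with microbeads from the stromal vascular fraction of the epididymal white adipose tissue (eWAT), the cells left after adipocytes are removed. The number of mice behind each library was not stated in the sources used here, so the p-values measure only the spread between these samples, which may be technical.

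Values are TPM, the share of a transcript among all transcripts of a library, which are scaled for transcript length, so that levels may be set side by side between genes. Each library held roughly 37.5 to 46.8 M counted reads, as estimated from the smallest steps between low TPM values. Ptprc, which encodes CD45, overlapped between the diets, at 54.5 and 59.4 TPM on ND and 55.3 and 53.7 TPM on HFD. Markers of cells other than leukocytes were present too. The summed TPM of 6 fibroblast markers was 522 and 561 in ND and 2837 and 5686 in HFD, and that of 10 spermatid markers was 2017 and 2042 in ND but 7553 in HFD replicate 1 and 2270 in HFD replicate 2. The HFD replicates also stood further apart than the ND replicates, with 11.6% of 16849 genes at least 2-fold apart on the TPM + 1 scale in HFD and 1.09% in ND.

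Mouse blood monocytes are divided into classical cells with high surface Ly6C and nonclassical cells with low surface Ly6C. Classical monocytes leave the bone marrow with the help of the receptor CCR2, enter inflamed tissue and can become macrophages there. Nonclassical monocytes arise from classical ones under the transcription factor NR4A1, depend on CX3CR1 for survival and patrol the vessel wall. In adipose tissue, recruited monocytes are a known source of the macrophages that gather in obesity. Of the genes described here, Ly6c1, Ly6c2, Plac8 and Vcan are used as marks of the classical class, and Ace, Treml4 and Spn as marks of the nonclassical class. None is restricted to monocytes.

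The 7 genes did not move as one group, nor did the genes of either class. Ly6c2, of the classical marks, and Spn, of the nonclassical marks, were lower in HFD and met the test for a differentially expressed gene (DEG), taken as a limma adjusted p under 0.05 over all genes tested and a difference of at least 1.5-fold. Plac8 and Treml4 lay lower and Vcan and Ace lay higher in both HFD samples than in both ND samples without meeting that test, and Ly6c1 overlapped between the diets. The count was thus 2 of 7 genes (28.6%), both lower, where 18.4% of all 16849 genes tested were DEGs, 10.3% lower and 8.08% higher. All 7 passed the filter of at least 1 TPM in at least 2 samples, Vcan only through the HFD samples, and without either HFD sample Vcan was not tested. The count was 4 of the 6 then tested without HFD replicate 2, where 25.4% of all genes were called, and 3 of 6 without HFD replicate 1, where 18.7% were. In these fits the lone HFD sample is assumed to vary like the ND pair, whose spread was 1.64 times the counting error against 3.35 times for the HFD pair, so these calls are no support for a change in more of the 7 genes. Without either of the ND replicates limma called none of the 7, nor any other gene, although 3471 genes without ND replicate 1 and 3686 without ND replicate 2 had an unadjusted p under 0.05, 2 of the 7 among them in each case. The HFD values lay wholly outside the ND values for 6 of 7 genes, against 66.9% of all genes tested. The median log2 fold change on the log2(TPM + 1) scale was -0.56 over the 7 genes and 0.06 over all genes. In these bulk samples, fewer cells of a type and less RNA per cell cannot be told apart.

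**Figure D1:**
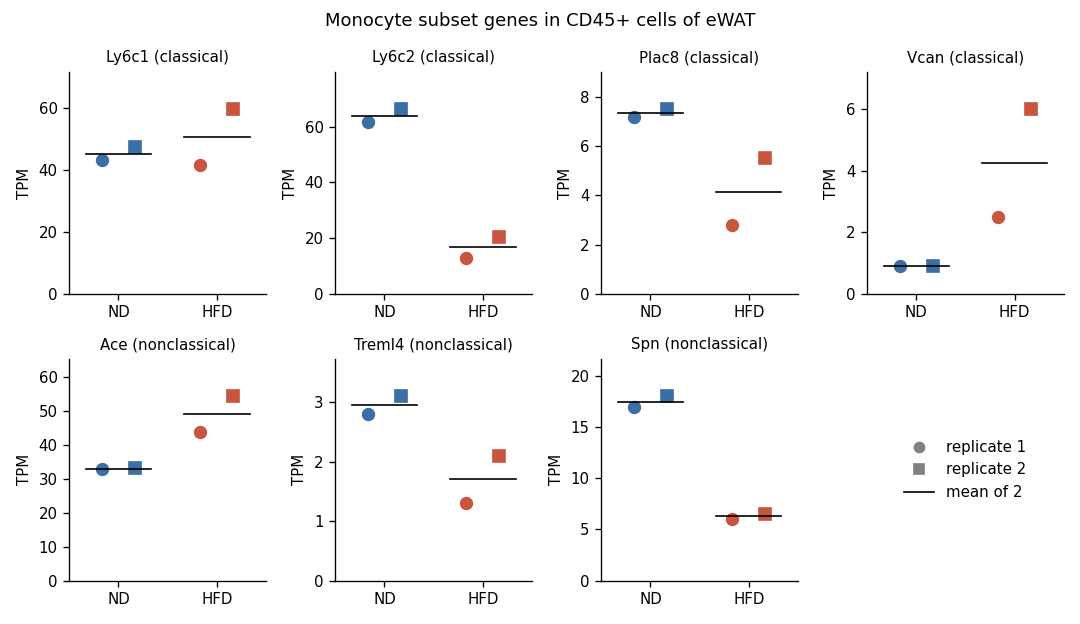
Each panel plots 1 gene, with TPM on a linear axis from 0 for the 2 ND samples (blue) and the 2 HFD samples (red). Circles are replicate 1, squares are replicate 2 and bars are the means of 2 samples. Ly6c2 fell from 61.6 and 66.3 to 13 and 20.5 TPM, and the HFD square lies above the HFD circle in every panel.

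Ly6c1 and Ly6c2 encode the closely related small surface proteins that antibodies to Ly6C detect. Both lie on the minus strand of chromosome 15 in the Ly6 gene cluster, Ly6c1 at chr15:75044018-75048830 and Ly6c2 at chr15:75108158-75111970 (GRCm38, GENCODE vM21). Their main transcripts shared 802 of 844 aligned bases. The stretches just before a listed transcription start of each gene were less alike. In the best local alignment of the 250 bases before each start (RefSeq, GRCm38.p6), 164 of 227 aligned positions were identical. They are shown here because Ly6c2 met the test under HFD and Ly6c1 overlapped between the diets. The RefSeq gene records reach chr15:75048920 for Ly6c1 and chr15:75112066 for Ly6c2, so the printed stretches lie partly within them. The sequences run 5′ to 3′ on the minus strand, from chr15:75048839-75049056 for Ly6c1 and chr15:75111998-75112221 for Ly6c2, and capitals mark bases that the other sequence does not share.
Ly6c1: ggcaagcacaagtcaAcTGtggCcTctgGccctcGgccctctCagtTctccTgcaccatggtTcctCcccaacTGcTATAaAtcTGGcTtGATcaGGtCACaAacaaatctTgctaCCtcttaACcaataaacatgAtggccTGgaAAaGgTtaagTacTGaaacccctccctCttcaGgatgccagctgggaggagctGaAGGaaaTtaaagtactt
Ly6c2: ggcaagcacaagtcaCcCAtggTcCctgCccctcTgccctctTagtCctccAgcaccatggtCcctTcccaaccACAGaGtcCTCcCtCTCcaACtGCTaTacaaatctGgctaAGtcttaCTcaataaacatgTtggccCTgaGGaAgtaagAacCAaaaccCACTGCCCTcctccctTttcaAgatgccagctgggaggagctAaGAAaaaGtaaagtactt

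The letters GAGGAAGT, a form of the site bound by the myeloid factor PU.1, were looked for on both strands in windows from 250 bases before to 50 bases after each RefSeq start. They occurred in 3.20% of 32851 such windows. Ly6c2 held them 108 bases before the start used above, inside the printed stretch, and again 26 bases after it. Counted from another listed start of Ly6c2, both sites lie before it, by 142 and 8 bases. In Ly6c1 they were found outside the printed stretch, 127 bases before another listed start. The letters AAAGGTCA, to which NR4A1 binds, occurred in 1.51% of windows and TTGCGCAA, a C/EBP site, in 0.183%, and neither was in a window of any of the 7 genes. Such matches describe the sequence only.

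Ly6c2 was read at 61.6 and 66.3 TPM on ND and at 13 and 20.5 TPM on HFD. The diets did not overlap, and both HFD samples were far below both ND samples. The mean fell from 64.0 ± 3.32 (SD, n = 2) to 16.8 ± 5.30 TPM, which was 3.82-fold lower. On the log2(TPM + 1) scale the change was -1.90 (SE 0.25), with a limma adjusted p of 0.0207. The call was lost without ND replicate 1 (adjusted p = 0.215), without ND replicate 2 (adjusted p = 0.209) and without the filter on low values (adjusted p = 0.0522), with changes of -1.96, -1.85 and -1.90 in these fits.

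Ly6c1 stood at 43.3 and 47.3 TPM on ND and at 41.6 and 59.6 TPM on HFD. HFD replicate 1 was below both ND samples and HFD replicate 2 was above both, so the diets overlapped. The log2 change was 0.14 (SE 0.21, limma adjusted p = 0.666), and it turned to -0.12 without HFD replicate 2. Besides monocytes, many endothelial cells express Ly6c1. The summed TPM of 10 endothelial markers was 546 and 552 in ND and 634 and 696 in HFD, with none of the 10 a DEG, against 18.4% of all genes. Cldn5 made up much of that sum, at 278.0, 275.8, 328.6 and 383.5 TPM. Pecam1, Cdh5, Kdr, Tie1 and Tek also lay higher in both HFD samples than in ND. Vwf, Egfl7 and Emcn lay lower in both, and Flt1 overlapped between the diets. The part of endothelial cells in the Ly6c1 values was not tested.

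The balance between the paralogs was also compared, a measure added after their values were seen. The ratio of Ly6c2 to Ly6c1 TPM was 1.42 and 1.40 on ND and 0.313 and 0.344 on HFD. Ly6c2 was thus above Ly6c1 in each ND library and below it in each HFD library, and the HFD replicates, which differed 1.43-fold in Ly6c1 and 1.58-fold in Ly6c2, gave close ratios. The log2 ratio in HFD minus that in ND was -2.11, with an exact two-sided permutation p of 0.333, the smallest that 2 against 2 samples allow. For single genes the same exact test gave 0.333 for each of the 6 genes whose diets did not overlap and 1 for Ly6c1.

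Reads can be assigned to either paralog only where the transcripts differ. Of all 50-base windows of the Ly6c1 transcripts, 32.8% were also found in another gene, 21.5% in Ly6c2. Ly6a and Ly6i were among the other genes that shared windows with Ly6c1. For Ly6c2 the share was 14.4%. How reads that fit both genes were counted was not stated in the sources used here. Summed as 1 gene, Ly6c1 and Ly6c2 changed by -0.71 on the log2(TPM + 1) scale with a limma adjusted p of 0.0990.

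Plac8 encodes a small cysteine-rich protein found in classical monocytes, and also in neutrophils, plasmacytoid dendritic cells and some lymphocytes. It lies at chr5:100553725-100572245 on the minus strand. Its level was 7.2 and 7.5 TPM on ND and 2.8 and 5.5 TPM on HFD. Both HFD samples were lower, and HFD replicate 2 was nearer to the ND samples than to HFD replicate 1. Means were 7.35 ± 0.21 (ND) and 4.15 ± 1.91 TPM (HFD; SD, n = 2), a log2 change of -0.75 (SE 0.31) with a limma adjusted p of 0.172. Without HFD replicate 2 the change was -1.14 (adjusted p = 0.0269) and without HFD replicate 1 it was -0.36 (adjusted p = 0.0666), with the spread in each taken from the ND pair alone. The values rest on about 72 to 197 reads a library. Markers of other cells that make Plac8 were measured beside it. The neutrophil markers summed to 71.4 and 94.7 TPM on ND and 28.4 and 30.8 on HFD, with 5 of 5 tested lower, against 10.3% of all genes, and Ly6g at 0, 0.1, 0 and 0 TPM. Of these, Cxcr2 passed the filter on low values only through the ND samples, as did Siglech and Spib of the next list. Plasmacytoid dendritic cell markers, of which 3 of 5 tested were lower, summed to 336 and 346 TPM on ND and 207 and 209 on HFD, but most of that was the broadly expressed Bst2, at 316.3, 326.3, 196.4 and 197.9 TPM. Siglech, which is more particular to these cells, went from 6.2 and 7.3 to 0.4 and 0.3 TPM, while Tcf4 and Cox6a2 changed by -0.09 and -0.06 on the log2(TPM + 1) scale and did not meet the test. The part of these cells in the Plac8 values was not tested.

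Vcan encodes versican, a large proteoglycan of the extracellular matrix, which classical monocytes express and which fibroblasts secrete. It lies at chr13:89655312-89742509 on the minus strand. Vcan was at 0.9 TPM in each ND sample and reached 2.5 and 6.0 TPM on HFD. Means were 0.9 ± 0 (ND) and 4.25 ± 2.47 TPM (HFD; SD, n = 2). Of Ly6c1, Ly6c2, Plac8 and Vcan, only Vcan had both HFD samples above ND. The log2 change was 1.38 (SE 0.40), with a limma adjusted p of 0.0884. Vcan passed the filter on low values only through the HFD samples, so its place among the genes tested depended on its being higher there. The size of the change depended on the pseudocount, at 1.99 with 0.1 and 0.62 with 5 in place of 1. HFD replicate 2 had 2.40 times the TPM of HFD replicate 1. The fibroblast marker sum given above had a ratio of 2.0 between the same libraries, and 4 of its 6 genes rose, against 8.08% of all genes. Col1a1, a collagen chain, changed by 3.77 (limma adjusted p = 0.0167) and Lum, another matrix proteoglycan, by 3.83 (adjusted p = 0.0167), while Pdgfra changed by 1.55 (adjusted p = 0.0618). Their part in the Vcan values was not tested.

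Ace encodes angiotensin-converting enzyme, which cleaves angiotensin I and is found on nonclassical monocytes, some macrophages and endothelial cells. It lies at chr11:105967945-105989964 on the plus strand. Mice on ND gave 32.7 and 33.2 TPM and mice on HFD gave 43.7 and 54.3 TPM. Every HFD sample was higher than every ND sample, with means of 33.0 ± 0.35 (ND) and 49.0 ± 7.50 TPM (HFD; SD, n = 2). The log2 change was 0.55 (SE 0.13) with a limma adjusted p of 0.0590. Without HFD replicate 1 it was 0.70 (adjusted p = 0.0320) and without HFD replicate 2 it was 0.40, again with the spread of the ND pair alone. The antisense gene Gm11651, at chr11:105965608-105985694 on the minus strand, had nearly the same values, with 31.1, 31.4, 43.3 and 53.5 TPM. Its exons share 295 bases with those of Ace, which is 19.3% of Gm11651 and 5.58% of Ace. The library kit keeps strand, but the strand setting of the counting was not stated, so it cannot be said to which strand the shared bases were counted. A shorter Ace transcript with a start inside the gene is made in the testis, and values per gene do not separate it. The endothelial sum was higher in both HFD samples and the spermatid sum was highest in HFD replicate 1, as given above, and the part of either in the Ace values was not tested.

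Treml4 encodes a receptor of the TREM-like family found on nonclassical monocytes and some splenic macrophages and dendritic cells. It lies at chr17:48264295-48275360 on the plus strand and was the lowest of the 3 nonclassical marks. Treml4 gave 2.8 and 3.1 TPM on ND against 1.3 and 2.1 TPM on HFD. Both HFD samples were lower, by 1.74-fold in the mean. The log2 change was -0.56 (SE 0.19) with a limma adjusted p of 0.125, and it was -0.78 without HFD replicate 2 (adjusted p = 0.0410) and -0.35 without HFD replicate 1 (adjusted p = 0.104). Both of these adjusted p-values rest on the spread of the ND pair, which was the tighter one. Each value rests on only about 42 to 102 reads.

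Spn encodes leukosialin, or CD43, a sialoglycoprotein that is high on nonclassical monocytes and also covers T cells and NK cells. It lies at chr7:127132232-127137823 on the minus strand. Spn went from 16.9 and 18.0 TPM on ND to 6.0 and 6.5 TPM on HFD. Neither pair of replicates spread far, and the diets were well apart. The mean fell from 17.5 ± 0.78 to 6.25 ± 0.35 TPM (SD, n = 2), which was 2.79-fold lower. This was a log2 change of -1.35 (SE 0.08, limma adjusted p = 0.00713). It was not called without ND replicate 1 (adjusted p = 0.176) or without ND replicate 2 (adjusted p = 0.168), with changes of -1.39 and -1.30. No 50-base window of Spn was shared with another gene.

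Markers of lymphocytes that carry CD43 were lower in HFD, as Spn was. So were those of neutrophils and, but for 1 gene, of B cells and plasma cells. Over ND, the HFD mean was 0.36 for Spn, 0.36 for the neutrophil sum and 0.36 for the B cell and plasma cell sum. It was 0.19 for the T cell sum and 0.19 for the NK cell sum. HFD replicate 2 over replicate 1 was 1.08 for Spn, 1.67 for the T cell sum and 0.82 for the NK cell sum. All 8 T cell markers were lower, against 10.3% of all genes, and their sum was 166 and 174 TPM on ND and 24.4 and 40.7 on HFD. All 6 NK cell markers were lower as well, with sums of 203 and 209 TPM on ND and 43.6 and 35.6 on HFD. Neither list was at 0 in any library. Their part in the Spn values, and in those of Ly6c2, which memory T cells can express, was not tested.

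**Figure D2:**
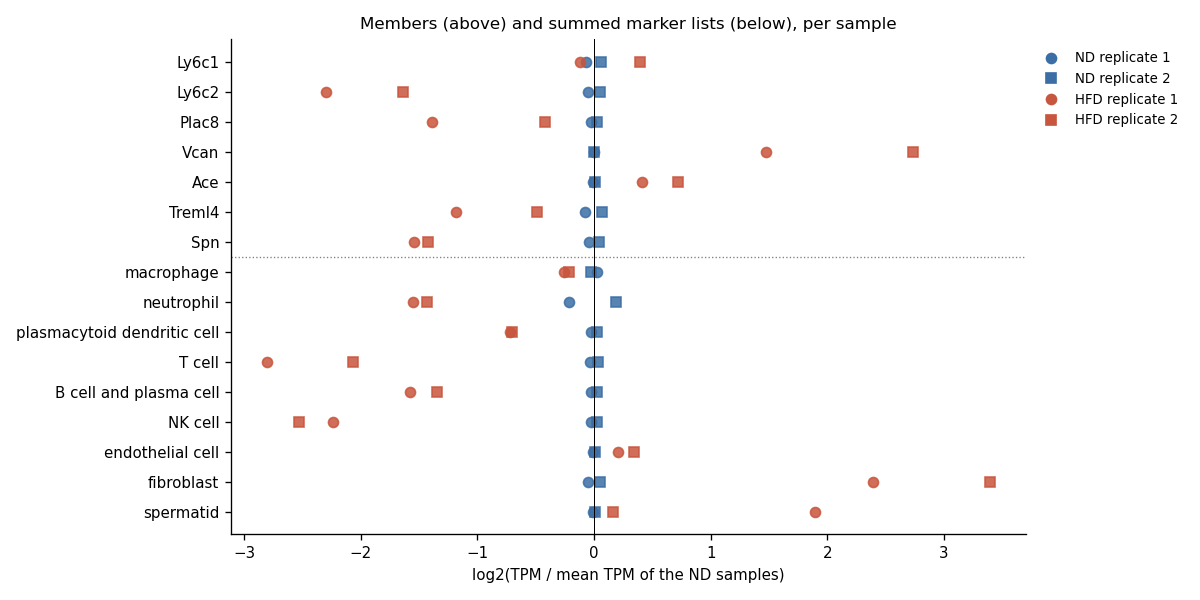
Each row gives 1 gene, or below the dotted line the summed TPM of 1 marker list, as log2 of its TPM over the mean of the 2 ND samples, with no pseudocount. Blue marks are ND samples and red marks HFD samples, circles are replicate 1 and squares replicate 2. The fibroblast, endothelial and spermatid sums lie to the right in HFD, as Vcan and Ace do. All other marker sums lie to the left in HFD, as Ly6c2, Plac8, Treml4 and Spn do.

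The HFD replicates disagreed in one direction. In all 7 genes the second HFD library was above the first, while 33.7% of all genes tested were. Other lists leaned the same way. HFD replicate 2 was the higher for 11 of 12 other classical genes, 10 of 12 other nonclassical genes, 8 of 8 macrophage markers, 7 of 8 T cell markers and 6 of 6 fibroblast markers, though for 5 of 12 development and recruitment genes, 2 of 6 NK cell markers and 0 of 10 spermatid markers. HFD replicate 2 also had the higher sum of fibroblast and T cell markers and the lower sum of spermatid markers. Divided by its level in replicate 1, the level in replicate 2 was 2.40 (95% counting interval 2.17 to 2.65) for Vcan, 1.96 (1.47 to 2.63) for Plac8 and 1.62 (1.09 to 2.40) for Treml4. It was 1.58 (1.42 to 1.76) for Ly6c2, 1.43 (1.32 to 1.55) for Ly6c1 and 1.24 (1.19 to 1.30) for Ace. Only for Spn, at 1.08 (0.949 to 1.24), did the interval include equal levels. These intervals are approximate and cover counting error only. On the log2(TPM + 1) scale, Vcan was 1.0 apart and thus the only one of the 7 at least 2-fold apart, where 11.6% of all genes were. Fewer genes went its way, as 174 genes leaned at least 2-fold towards HFD replicate 2 and 1776 towards HFD replicate 1. Plac8 was 0.77 apart, a distance reached in either direction by 14.5% of genes, and Spn 0.10, reached by 64.8%. Between the ND replicates no member differed by more than 0.12.

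**Figure D3:**
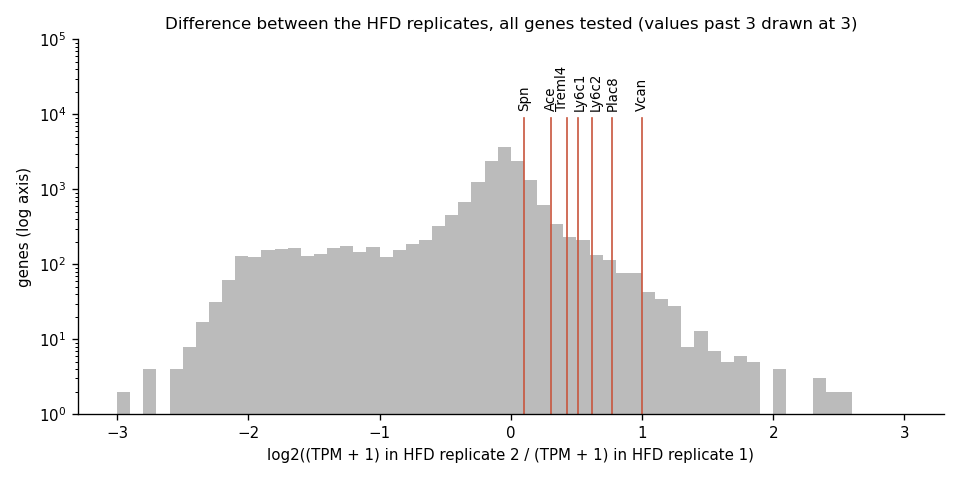
Grey bars count all 16849 genes tested (log axis) by their difference between the HFD replicates, as log2 of TPM + 1 in replicate 2 over that in replicate 1. Red lines mark the 7 monocyte subset genes. All 7 lines lie right of 0, from 0.10 for Spn to 1.0 for Vcan, on the side that holds 33.7% of genes.

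Further genes of either class, listed from common knowledge of these cells, were described in the same way, and their calls, like those of the 7, were lost without either of the ND replicates. Of 12 other classical genes, 8 were DEGs and all 8 were lower, against 10.3% of all genes tested, with a median log2 change of -0.92. The count was 5 without the filter on low values. Ifitm6, an interferon-induced membrane protein gene, went from 360.7 and 385.5 to 60.5 and 73.5 TPM, and fell by 2.47 (limma adjusted p = 0.00539). F13a1, a coagulation factor subunit made by monocytes and resident macrophages, went from 836.0 and 869.7 to 240.8 and 143.5 TPM (log2 change -2.19, adjusted p = 0.0212). Alone among these 12 genes, it was the higher in HFD replicate 1. Ccr2, Ms4a4c, Fn1, Ly6i and Ifitm3 were also among those that fell, Ly6i having passed the filter on low values only through the ND samples. Hp, Gm9733, Chil3 and Mgst1 did not meet the test, with log2 changes from 0.05 to 0.50. Mgst1 lay higher in both HFD samples, from 70.3 and 73.6 to 93.9 and 111.2 TPM, and missed only the 1.5-fold threshold (limma adjusted p = 0.0485). Hp, Gm9733 and Chil3 overlapped between the diets, and Hp and Gm9733 changed sign under other scalings.

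Among 12 other nonclassical genes, 6 fell and 2 rose, where 10.3% of all genes fell and 8.08% rose, and the median was -0.64. Without the filter on low values 5 of the 12 were called. Pglyrp1, a peptidoglycan recognition protein, fell by 2.62 (limma adjusted p = 0.0284), from 49.3 and 42.3 to 4.3 and 9.8 TPM. Itgal, the alpha chain of LFA-1, fell by 1.73 (adjusted p = 0.00611), from 25.4 and 27.3 to 6.8 and 7.7 TPM. Both are also expressed by other leukocytes, Pglyrp1 by neutrophils and Itgal by lymphocytes. The genes that rose were Fcgr4, an activating Fc receptor, from 41.8 and 41.4 to 96.8 and 112.1 TPM (log2 change 1.30, adjusted p = 0.00823), and Gngt2, a G protein gamma subunit, from 10.1 and 9.7 to 18.7 and 23.3 TPM (1.01, adjusted p = 0.0213). Like Ace, they are nonclassical marks that lay higher in HFD. Macrophages also express Fcgr4, and of 8 macrophage markers 2 rose and 1 fell. Nr4a1 and Cx3cr1, whose products serve the origin and the survival of this class, were lower, with log2 changes of -0.63 and -0.79 (adjusted p = 0.00761 and 0.0367). Nr4a1 stood at 368.9 and 358.5 TPM on ND and 231.1 and 239.3 TPM on HFD, far above Treml4 and Spn. Which cells gave the Nr4a1 and Cx3cr1 values was not tested.

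Of 12 genes for monocyte development and recruitment, 4 fell and none rose, against 10.3% and 8.08% of all genes, with a median of -0.43. The falls were led by the CCR2 ligand genes Ccl12, from 244.8 and 246.7 to 45.0 and 45.9 TPM (log2 change -2.41, limma adjusted p = 0.00378), and Ccl7, from 1554.5 and 1571.0 to 584.9 and 485.7 TPM (-1.55, adjusted p = 0.00817). Ccl2, another ligand of the same receptor, and Klf4, a transcription factor needed for classical monocytes, made up the 4. The receptor gene Ccr2 itself went from 117.8 and 125.5 to 53.1 and 54.7 TPM. Between the HFD replicates the receptor differed by only 0.04 on the log2 scale, less than any of the 7 genes. Spi1, which encodes PU.1, had 169.3 TPM in each ND sample and 210.6 and 207.1 in HFD, a change of 0.30 that did not reach 1.5-fold.

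**Figure D4:**
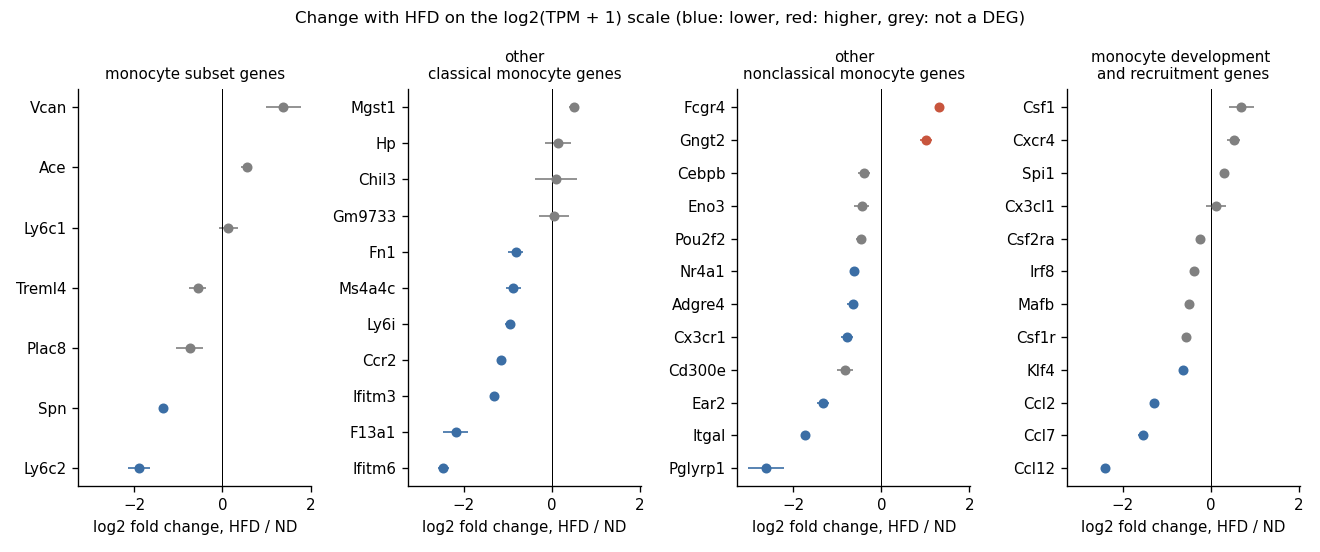
Points are log2 fold changes, HFD over ND, on the log2(TPM + 1) scale, with bars of 1 SE from limma and 1 panel for each list of genes. Blue points are DEGs lower in HFD, red points DEGs higher in HFD and grey points no DEGs. The other classical DEGs drawn all lie left of 0, while the 7 monocyte subset genes run from -1.90 to 1.38.

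Ly6c1 and Ly6c2 were also set among the Ly6 family, whose members share a protein fold. The list held both of them, and Ly6i, which is counted with the classical genes as well. Of its 11 genes 10 had a row and 8 passed the filter, Ly6i and Ly6f only through the ND samples, and 4 of the 8 fell, Ly6c2 among them, while none rose, against 10.3% and 8.08% of all genes. Without Ly6c1 and Ly6c2, 3 of 6 fell. Ly6d, a lymphoid progenitor and B cell gene, fell furthest, from 41.1 and 42.6 to 4.7 and 7.8 TPM (log2 change -2.60, limma adjusted p = 0.0126). B cell and plasma cell markers, of which 7 of 8 were lower and 1 was higher, summed to 453 and 468 TPM on ND and 154 and 181 on HFD, and their part in the Ly6d values was not tested. Ly6c2 came next, ahead of Ly6e, an interferon-induced and broadly expressed gene (-1.78, adjusted p = 0.00402). Ly6a, which encodes Sca-1 and lies next to Ly6c1 in the cluster, gave 36.8 and 38.9 TPM on ND and 29.1 and 48.5 on HFD. Like Ly6c1, it was below ND in HFD replicate 1 and above ND in HFD replicate 2. Ly6a shares some 50-base windows with Ly6c1, and the part of shared reads in this likeness was not tested.

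The genes whose pattern over the 4 samples was most like that of each member were found by the root mean square distance of log2(TPM + 1) after centring each gene. For Ly6c2 these were Cd8b1 (0.034), Gimap9 (0.036) and Barx2 (0.045), and 15 genes lay within 0.1. Spn was nearest to Amigo2 (0.022), Slc18a2 (0.024) and Klrc1 (0.026), with 115 genes within 0.1. Vcan was nearest to Lrrn4cl (0.012), Clec3b (0.018) and Serpine2 (0.022), with 30 genes within 0.1. The closest genes were Spry1, Cx3cl1 and F2r for Ly6c1, Hs3st1, Hbb-bt and Ctsg for Plac8, Mmd, Gli3 and Fbln5 for Ace, and Nfil3, Klra17 and Pxdc1 for Treml4. Over 4 samples such likeness describes these libraries only.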

How the data were processed

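RNA was sequenced from CD45+ cells of eWAT in 2 ND and 2 HFD samples. The authors deposited 1 table of TPM per sample. The submitters' processing notes name Trim Galore 0.4.2, cutadapt 1.9.1, STAR 2.6.1e, featureCounts 1.6.2 and mm10. The annotation, strand setting and handling of multi-mapped reads are not given in the sources used here. TPM keeps no counts, so reads were estimated from the steps of low values and GENCODE vM21 exon lengths, and no count test was run.

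Genes with at least 1 TPM in at least 2 samples (16849) were tested on log2(TPM + 1), a scale that understates changes of low genes, with limma 3.58.1 (R 4.3.3, variance trend) and Benjamini-Hochberg adjustment over all of them. The code was tested on simulated data. The members and gene lists were chosen with earlier results of these data known. Named from each further list were the 2 DEGs with the largest rise and the 2 with the largest fall, and for each member the 3 nearest genes. Ccr2, Ccl2, Klf4, Nr4a1, Cx3cr1, Spi1, Ly6a, Ly6e and the fibroblast genes were singled out after their values were seen, as were the genes listed beside a count. A listed gene is counted but not reported here. Sequences came from RefSeq (GRCm38.p6, windows for all 7 members) and were aligned with Biopython 1.88. The alignment was made local after a global one had been seen. Alternatives were other pseudocounts, filters, scalings and fold thresholds, a replicate block and leaving out each sample.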

Additional observations from a re-analysis of the deposited data

How the results depend on the processing

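Over all alternatives, 144 values counted as unchanged (a tested change on its side of the threshold, a count within 1.5 times, a replicate difference within its counting interval), 27 moved, 7 lost the call, 3 gained it and 2 reversed. The count of DEGs over all genes, 3097, became 2015 with a pseudocount of 5, 1602 at 2-fold and 812 with the replicate block, and ranged from 0 to 4177 when 1 sample was left out. It was 0 in limma without ND replicate 1 (3471 genes at an unadjusted p under 0.05) and without ND replicate 2 (3686), and no other tool was run on all genes. A lone ND sample is assumed to vary like the HFD samples, and a lone HFD sample like the tighter ND samples. DEGs among the 7 genes numbered 1 without the filter and 1 with the replicate block, instead of 2, and 0 to 4 with a sample left out, with 2 of the 7 at an unadjusted p under 0.05 without either ND replicate. For the other classical genes (8) the counts were 5 without the filter, 3 with the block and 0 to 8, for the other nonclassical genes (8) 5, 2 and 0 to 9. Development and recruitment genes (4) gave 0 to 6 with a sample left out, and Ly6 family genes (4) gave 2 with the replicate block and 0 to 5 with a sample left out. Same-numbered samples did not deviate together (r = -0.015 over 16849 genes), so the numbers do not pair the samples.

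Ly6c1 (0.14) ranged from -0.12 to 0.39 with a sample left out and was -0.71 when summed with Ly6c2. Ly6c2 stayed at -1.90 without the filter (adjusted p = 0.0522) and with the replicate block (adjusted p = 0.0527), and was -0.71 summed. With a sample left out, Ly6c2 ranged from -2.21 to -1.59, Plac8 from -1.14 to -0.36, Ace from 0.40 to 0.70, Treml4 from -0.78 to -0.35 and Spn from -1.40 to -1.30. Between the HFD replicates, median-ratio scaling moved the difference to 0.67 for Ly6c1, 0.77 for Ly6c2 and 0.47 for Ace, and a pseudocount of 0.1 moved Vcan to 1.23. The cause of these moves was not tested. Vcan was not tested without either HFD sample. With a pseudocount of 5, changes of low genes shrank, to -0.45 for Plac8, -0.25 for Treml4 and 0.62 for Vcan, which was 1.99 with 0.1. Treml4 rests on the fewest reads of the 7.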
